A study of Mus musculus with 10 samples.

Results

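Bin2 and 8 other genes for BAR-domain proteins were followed through total RNA sequencing of cultured mouse microglia, the resident macrophages of the brain. The 9 genes, Bin1, Bin2, Bin3, Amph, Sh3gl1, Sh3glb1, Snx9, Pstpip1 and Fnbp1, were taken by name from the 55471 genes of each count table, after Ensembl identifiers were matched to GENCODE M21 symbols. Bin2 was chosen by its fold change between the groups of these same libraries, where it was lower, and the relatives were listed by family. Its own difference is therefore described here and not tested, and the question put to the other 8 was whether they followed Bin2 or offset it. All 9 genes passed the filter on low counts.

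The cells were primary microglia of WT genotype, kept in DMEM with serum and antibiotics, and all of them received gapmers, a class of antisense oligonucleotide that pairs with an RNA and leads RNase H to cleave it. Control gapmers were used in 5 libraries and gapmers against the long noncoding RNA 3222401L13Rik in the other 5. The labels give neither the age of the mice, the time after gapmer treatment nor whether the replicates came from separate cultures, so p-values measure only the spread between these libraries. The target itself, 3222401L13Rik, had 30.8 ± 2.59 reads (SD, n = 5) in the controls and 29.2 ± 6.53 reads in the other group, with overlapping ranges, and an estimated 48.0% of its reads were background. It was not called lower, at a log2 difference of -0.17 (SE 0.23, adjusted p = 0.541, edgeR) with TMM scaling and -0.42 (SE 0.24, adjusted p = 0.16, edgeR) with the low-background scaling described below. The second group is therefore called the libraries labelled knockdown.

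BAR domains are curved, dimeric protein modules that lie on membranes and sense or shape their curvature. N-BAR proteins such as amphiphysins and endophilins wrap narrow necks and tubules and recruit dynamin during endocytosis, F-BAR proteins bind shallower curves and connect the membrane to WASP-driven actin, and sorting nexins with a BAR domain work on endocytic carriers and endosomal tubules. BIN2 is the member of the amphiphysin family found mainly in blood-derived and microglial cells, where it has been tied to podosomes, phagocytosis and, in platelets, to store-operated calcium entry, while BIN1 is known in the brain as an Alzheimer's disease risk gene.

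The promoters of Sh3glb1 and Pstpip1 are shown because these relatives had the highest and the lowest fold change among the 8. The sequences come from RefSeq (GRCm38.p6), from 250 bases before to 14 bases after the annotated start, read 5′ to 3′ on the gene's strand. The Sh3glb1 sequence covers chr3:144720322-144720585 on the minus strand and the Pstpip1 sequence covers chr9:56089726-56089989 on the plus strand. Capitals mark TTCCTC in Sh3glb1 and ACTTCC in Pstpip1, the reverse complements of GAGGAA and GGAAGT, both parts of the sequence that PU.1 (Spi1), the lineage factor of microglia, is known to bind.
Sh3glb1: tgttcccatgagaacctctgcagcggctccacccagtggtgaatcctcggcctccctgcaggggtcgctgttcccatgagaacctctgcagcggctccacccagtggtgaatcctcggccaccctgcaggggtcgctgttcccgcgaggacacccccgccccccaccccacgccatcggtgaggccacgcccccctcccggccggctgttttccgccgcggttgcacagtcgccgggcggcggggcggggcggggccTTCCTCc
Pstpip1: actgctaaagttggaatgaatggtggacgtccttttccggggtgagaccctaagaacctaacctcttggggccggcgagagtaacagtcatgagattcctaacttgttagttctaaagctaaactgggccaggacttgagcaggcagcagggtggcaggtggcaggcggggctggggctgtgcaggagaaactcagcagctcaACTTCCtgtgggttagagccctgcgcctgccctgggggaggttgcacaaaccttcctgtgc
Both motifs, which overlap each other in the longer form GAGGAAGT, were searched on both strands in full windows of 250 bases before to 50 after each start. In Sh3glb1 GAGGAA began at base 8 after the start shown, on the strand opposite to the gene, which is 159 bases before another annotated start. In Pstpip1 GGAAGT began 47 bases before the start, also on the opposite strand. The table held 8 windows for 5 of the 9 members (Amph, Fnbp1, Pstpip1, Sh3gl1 and Sh3glb1), and windows of 1 gene can overlap. GAGGAA was in 6 windows of 4 members, at 4 distinct places, and in 28.3% of all 32851 windows. GGAAGT was in 4 windows of 3 members, at 3 distinct places, and in 23.8% of all windows. The longer form GAGGAAGT was in 0 of the 8 windows and in 3.2% of all windows. A match is a run of letters and not a measured binding site.

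The controls held 4321316 to 5639040 reads, and the libraries labelled knockdown held 5593627 to 6636082 reads. They also differed in a background measure, the RPKM (counts-per-million values divided by exon length in kilobases) of 1135 olfactory receptor genes, which microglia are not known to use. This density was 0.599 ± 0.147 in the controls and 0.257 ± 0.067 in the libraries labelled knockdown (SD, n = 5 each), and the ranges did not overlap. Multiplied by exon length it gives the background reads predicted for a gene, and their share of the gene's reads is called its background share. The share was 0.954% to 3.57% for 7 members, and 36.3% for Amph and 30.1% for Pstpip1. Levels are therefore given as counts-per-million (CPM) values under both TMM scaling over all tested genes and a scaling on the 4728 tested genes with a background share under 5%, called low-background scaling. The median log2 difference of all 19263 tested genes was -0.10 under TMM and -0.34 under low-background scaling, and for the genes under a 5% share it was 0.24 and 0.00, so each value below is read against those medians.

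**Figure D1:**
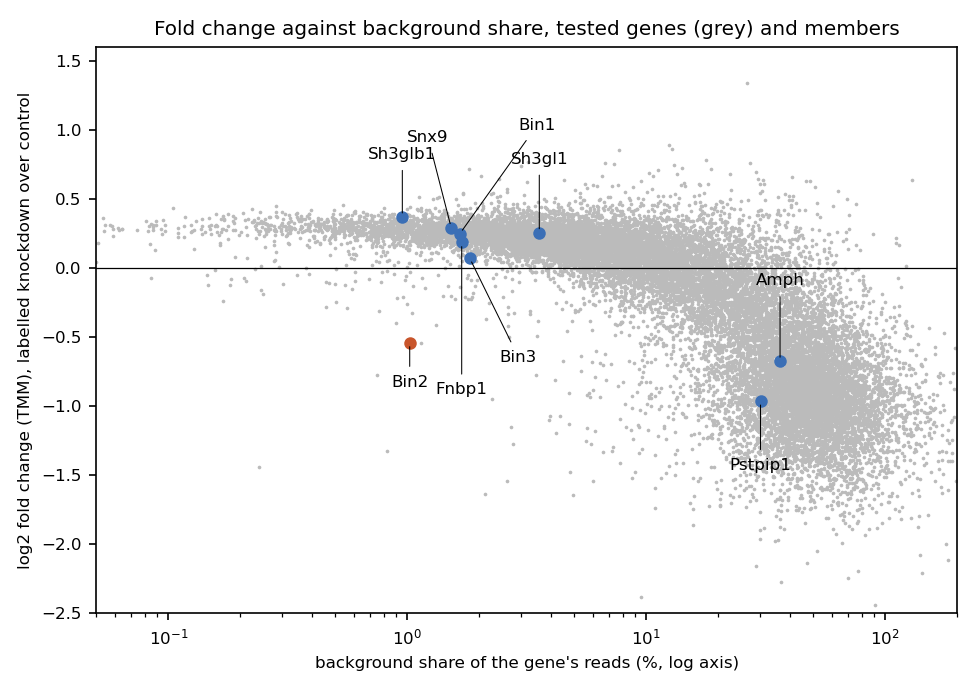
Each grey point is 1 of the tested genes with a background share, placed by that share (percent, log axis) and by its log2 fold change under TMM scaling (libraries labelled knockdown over control); the 9 BAR-domain genes are named, and 54 genes lie outside the axes. A share above 100% belongs to a gene with fewer reads than predicted. Bin2, at a share of 1.02%, lies at -0.54, while Amph (36.3%) and Pstpip1 (30.1%) lie where many tested genes had negative values.

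Bin2 (15:100641077-100669553, minus strand, GRCm38) was lower in CPM in every library labelled knockdown than in every control. Its read counts were 761, 509, 671, 596 and 726 in controls 1 to 5, and 407, 472, 489, 500 and 522 in the libraries labelled knockdown, so that control 2, the shallowest library, had fewer reads than replicate 5 of the libraries labelled knockdown. Under TMM scaling this was 139, 106, 123, 110 and 130 CPM in the controls and 76.9, 81.3, 82.5, 88.5 and 88.9 CPM in the libraries labelled knockdown. The lowest control, replicate 2, stood above the highest library labelled knockdown, replicate 5, and the controls were spread more widely. The fold change on the log2 scale was -0.54 (SE 0.07), a ratio of 0.688, under TMM, and -0.78 (SE 0.05), a ratio of 0.581, under low-background scaling.

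The difference in Bin2 was present on both sequencing lanes that the file names give, each of which held libraries of both groups. On lane 7 (replicates 1 to 3) the mean went from 135 CPM in the controls to 72.9 CPM under low-background scaling, a ratio of 0.54. On lane 8 (replicates 4 and 5) it went from 127 to 82.6 CPM, a ratio of 0.65. Bin2 was picked for its fall in these same libraries, so neither the lanes nor its rank is separate support for that fall. Among the 4233 protein-coding genes that averaged 20 CPM or more and had a background share under 5%, Bin2 had the fifth lowest fold change under both scalings. The 4 genes ahead of it, named after their values were seen, were the predicted gene models Gm10801, Gm10800, Gm21738 and Gm10717, at -1.69 to -1.53 under low-background scaling. The next after it was Cadm1, which encodes a cell adhesion molecule of the immunoglobulin superfamily, at -0.64. No other gene's exons overlapped those of Bin2 in GENCODE M21.

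**Figure D2:**
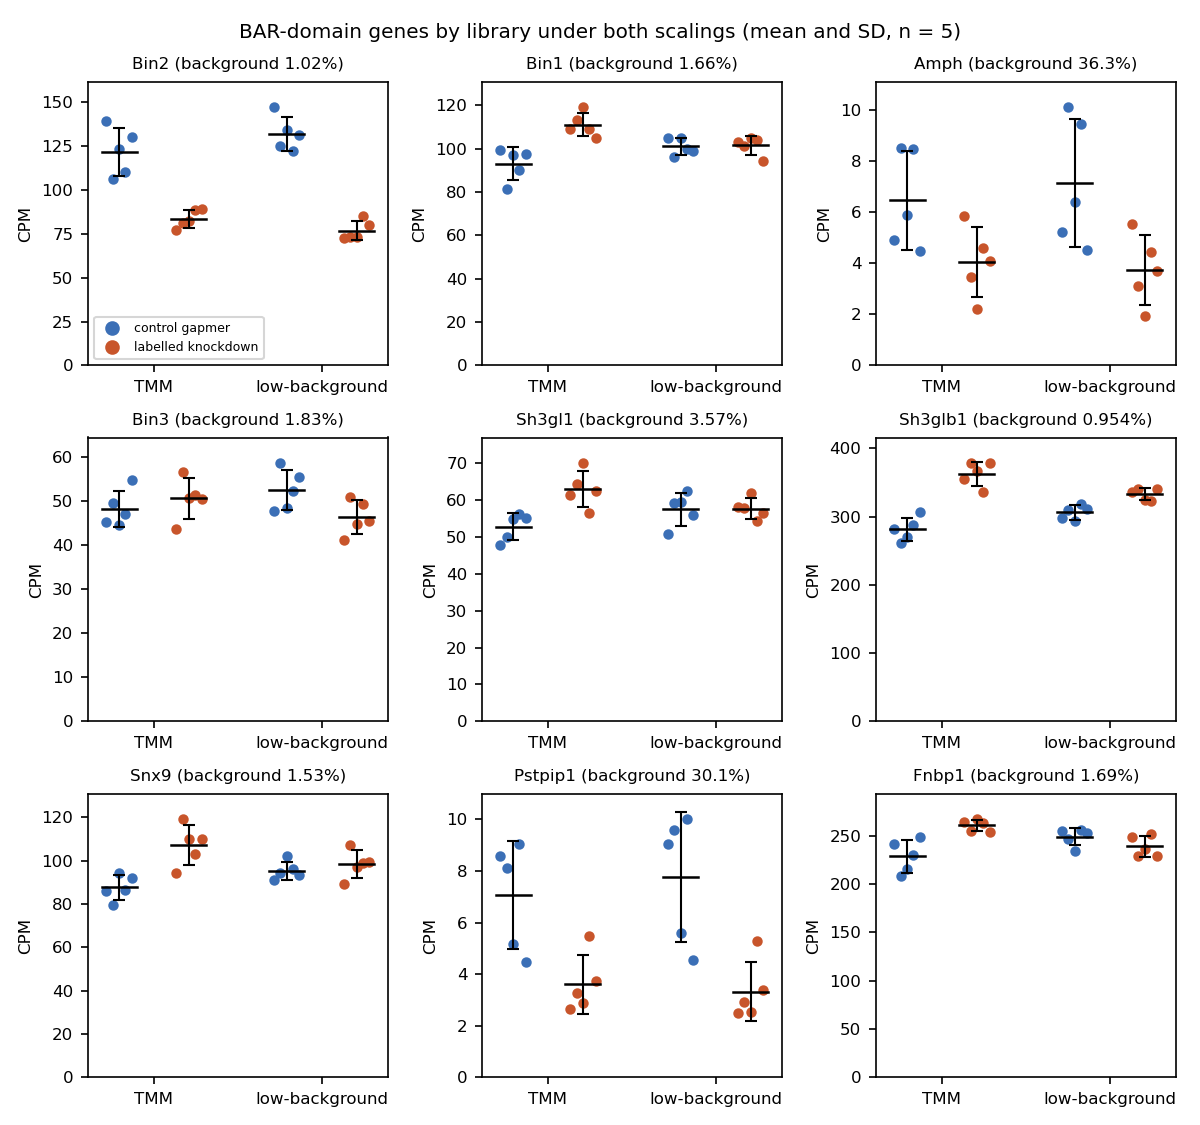
Each panel gives 1 gene's level in CPM in every library (axis from 0), with control gapmers in blue and the libraries labelled knockdown in orange; the left pair is under TMM and the right pair under low-background scaling, and bars are the mean and SD (n = 5). Bin2 and Sh3glb1 are the members whose groups do not overlap under either scaling, in opposite directions. Bin2 was picked for its fall, and how many of all tested genes lie apart in this way was not counted.

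Against this, 5 of the 8 relatives were called higher and 2 lower under TMM scaling (edgeR, quasi-likelihood, p adjusted over all tested genes by Benjamini-Hochberg, threshold 0.05). Of all tested genes 22.9% were called higher and 31.3% lower. The 5 called higher, Bin1, Sh3gl1, Sh3glb1, Snx9 and Fnbp1, belong to the 6 relatives with a background share under 5%, and of all genes under that share 75.5% were called higher and 0.486% lower, so this count lies near its background. Under low-background scaling 1 relative was called higher, Sh3glb1, and 3 lower, Bin3, Amph and Pstpip1. The shares of genes under a 5% share called there were 6.32% higher and 5.46% lower, and over all tested genes 1.62% and 44.6%.

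**Figure D3:**
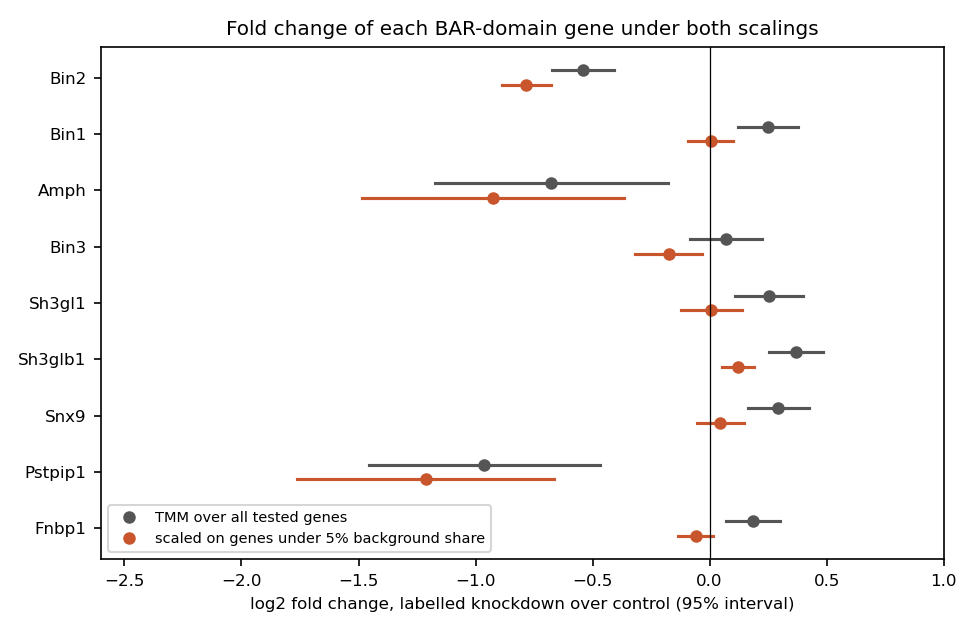
Points give the log2 fold change of each of the 9 genes (libraries labelled knockdown over control) under TMM (grey) and low-background scaling (orange), with lines for the 95% interval from edgeR. Bin2, which was picked for its fall, lies below 0 under both scalings (-0.54 and -0.78), so its intervals are not a test. The values of Bin1, Sh3gl1, Snx9 and Fnbp1 move from 0.19 to 0.29 under TMM to -0.06 to 0.05 under low-background scaling.

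Bin1 (18:32377230-32435737, plus strand) is the closest relative of Bin2 and encodes a protein that tubulates membranes and binds dynamin. Under TMM it stood at 99.4, 81.2, 97.0, 90.3 and 97.5 CPM in controls 1 to 5, and at 109, 113, 119, 109 and 105 CPM in the libraries labelled knockdown. The groups did not overlap, and the log2 difference was 0.25 (SE 0.06, adjusted p = 0.00099, edgeR). Under low-background scaling the levels were 105, 96.3, 105, 100 and 98.9 CPM against 103, 101, 105, 104 and 94.3 CPM, and the groups overlapped almost fully. The difference there was 0.00, with a 95% interval of -0.09 to 0.10 (adjusted p = 0.948, edgeR). A long noncoding RNA, A830052D11Rik, shares 256 bases of exon with Bin1 on the opposite strand, and since the strand setting of the counting is not given, its reads (76 in all) cannot be told apart.

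Bin3 (14:70100105-70138206, plus strand), which also encodes a BAR-domain protein, was called under low-background scaling and not under TMM, and its direction turned with the scaling. Under TMM the controls stood at 45.2, 49.5, 44.7, 47.0 and 54.8 CPM and the libraries labelled knockdown at 43.7, 56.7, 50.8, 51.3 and 50.6 CPM, with overlapping groups and a log2 difference of 0.07 (SE 0.08, adjusted p = 0.442, edgeR). Under low-background scaling the means were 52.6 ± 4.59 and 46.4 ± 3.80 CPM (SD, n = 5), and each library labelled knockdown lay under the control mean. The difference was then -0.17 (SE 0.07, adjusted p = 0.0419, edgeR), but the call was lost when control replicate 2, 4 or 5 or replicate 1, 3 or 5 of the libraries labelled knockdown was left out, with values from -0.21 to -0.14 over all 10 omissions. Bin3 shares 43 bases of exon with Ccar2 on the opposite strand.

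Amph (13:18948205-19150921, plus strand) encodes amphiphysin, best known from nerve terminals, and was read at a low level. Its read counts were 27, 41, 32, 46 and 25 in the controls and 31, 20, 13, 26 and 24 in the libraries labelled knockdown. The groups overlapped, because controls 1 and 5 lay below replicate 1 of the libraries labelled knockdown. The log2 difference was -0.68 (SE 0.25, adjusted p = 0.0189, edgeR) under TMM and -0.93 (SE 0.28, adjusted p = 0.00621, edgeR) under low-background scaling. Under TMM the call was lost without control replicate 2 or 4 or without replicate 2 or 3 of the libraries labelled knockdown, with values from -0.60 to -0.50 in those fits.

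The background predicted for Amph moved with the groups, from 13.6 reads per control to 7.11 reads per library labelled knockdown. With these subtracted the level was 4.31 ± 1.83 CPM in the controls and 2.58 ± 1.11 CPM in the libraries labelled knockdown (SD, n = 5), and an exact two-sided permutation test (252 arrangements) gave p = 0.135. Among all genes with a background share of 25 to 40%, 0.138% were called higher and 55.3% lower under TMM, at a median of -0.68, and 70.7% were called lower under low-background scaling. The counts of members called lower include 2 genes of this kind, Amph and Pstpip1. Neuronal markers, at a median background share of 50%, also had a lower sum in CPM of the library totals. It ran from 49.1 to 85.2 CPM in the controls and from 23.4 to 39.5 CPM in the libraries labelled knockdown. The part of neurons in the Amph value was not tested.

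Sh3glb1 (3:144683678-144720335, minus strand), which encodes the endophilin B1 of mitochondria, autophagosomes and the Golgi, had the most reads of the 9 genes. Under TMM its level was 282, 261, 270, 287 and 306 CPM in the controls and 355, 378, 367, 336 and 378 CPM in the libraries labelled knockdown. No library labelled knockdown lay within the control range, and the log2 difference was 0.37 (SE 0.06, adjusted p = 2e-06, edgeR). Under low-background scaling the levels were 298, 309, 293, 319 and 311 CPM against 336, 340, 325, 323 and 341 CPM. The groups remained apart, by a small step between control replicate 4 and replicate 4 of the libraries labelled knockdown. The difference there was 0.12, with a 95% interval of 0.05 to 0.19 (adjusted p = 0.00332, edgeR), and 0.11 with background also subtracted (adjusted p = 0.0488, edgeR). Within lane 7 the ratio was 1.11 and within lane 8 it was 1.05, where the lane alone gave an adjusted p of 0.394 (edgeR, 2 libraries per group).

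Sh3gl1 (17:56016750-56036635, minus strand), an endophilin A that recruits synaptojanin and dynamin to the necks of endocytic pits, was read at a lower level. It ran from 47.9 to 56.2 CPM in the controls and from 56.4 to 69.9 CPM in the libraries labelled knockdown under TMM, just without overlap. The means were 52.7 ± 3.63 and 62.9 ± 4.86 CPM (SD, n = 5), a log2 difference of 0.25 (SE 0.07, adjusted p = 0.0028, edgeR). With low-background scaling the means were 57.5 ± 4.48 and 57.7 ± 2.76 CPM, and the difference was 0.01 with a 95% interval of -0.12 to 0.14 (adjusted p = 0.932, edgeR). Sh3gl1 shares 41 bases of exon with Mpnd on the opposite strand.

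Snx9 (17:5841329-5931954, plus strand) encodes a sorting nexin that couples dynamin to N-WASP late in endocytosis. Under TMM it had 85.8, 79.6, 94.2, 86.3 and 92.0 CPM in the controls and 94.3, 119, 110, 103 and 110 CPM in the libraries labelled knockdown. Replicate 1 of the latter stood barely above control replicate 3, so the groups did not overlap, and the log2 difference was 0.29 (SE 0.07, adjusted p = 0.00021, edgeR). With low-background scaling its means were 95.3 ± 4.28 and 98.3 ± 6.37 CPM, with overlap, and the difference was 0.05 with a 95% interval of -0.06 to 0.15 (adjusted p = 0.477, edgeR).

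Fnbp1 (2:31026206-31142008, minus strand) encodes FBP17, an F-BAR protein that gathers WASP and dynamin at podosomes and clathrin-coated pits. Under TMM it ran from 208 to 249 CPM in the controls and from 254 to 267 CPM in the libraries labelled knockdown, without overlap. The means were 229 ± 17.0 and 260 ± 5.82 CPM (SD, n = 5), a log2 difference of 0.19 (SE 0.06, adjusted p = 0.00659, edgeR). With low-background scaling the direction turned, with means of 249 ± 9.07 and 239 ± 11.1 CPM and a difference of -0.06 (95% interval -0.13 to 0.02, adjusted p = 0.193, edgeR). Its 5 libraries labelled knockdown ran from 229 to 252 CPM there, inside or close to the control range of 234 to 256 CPM.

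Pstpip1 (9:56089962-56128888, plus strand) encodes an F-BAR adaptor of blood cells that binds WASP, pyrin and PTP-PEST. Its read counts were 47, 39, 28, 49 and 25 in the controls and 14, 19, 17, 31 and 22 in the libraries labelled knockdown. Controls 3 and 5 lay below replicate 4 of the libraries labelled knockdown, so the groups overlapped. The log2 difference was -0.96 (SE 0.25, adjusted p = 0.00107, edgeR) under TMM and -1.21 (SE 0.27, adjusted p = 0.000519, edgeR) under low-background scaling.

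Background made up 30.1% of the Pstpip1 reads, with 11.5 predicted reads per control and 6.02 per library labelled knockdown. After subtraction the levels were 7.01, 6.27, 3.28, 7.46 and 2.87 CPM in the controls and 1.30, 2.09, 1.82, 3.95 and 2.56 CPM in the libraries labelled knockdown. The mean was 5.38 ± 2.15 CPM against 2.35 ± 1.01 CPM, and the exact two-sided permutation test gave p = 0.0317, or 0.0634 after adjustment over the 2 genes tested this way. Lymphocytes are another known source of Pstpip1. Their markers carried a median background share of 68%. In CPM of the library totals they summed to 10.3 to 22.7 in the controls and 3.25 to 10.7 in the libraries labelled knockdown. The part of lymphocytes in the Pstpip1 value was not tested.

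Per kilobase of exon and under low-background scaling, Bin2 had the highest level of the 9 genes in the controls, at 52.2 ± 3.76 RPKM, followed by Sh3glb1 at 41.0 ± 1.4. Their control ranges, 48.3 to 58.0 and 39.2 to 42.7, did not overlap. Snx9 (26.4), Fnbp1 (24.8), Bin1 (24.6) and Bin3 (24.0) followed as neighbours whose ranges overlapped, then Sh3gl1 at 11.5, and Pstpip1 (2.03) and Amph (1.57), whose ranges overlapped too. In the libraries labelled knockdown Sh3glb1 came first at 44.6 ± 1.12 and Bin2 second at 30.4 ± 2.2, again without overlap. The range of Bin2 there, 28.8 to 33.6, met that of Snx9, 24.7 to 29.6, and the order of the others was the same except that Bin1 and Fnbp1 changed places.

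The ratio of Bin2 to a relative within the same library does not depend on the scaling. For Bin1, Bin2 per kilobase was 2.12 ± 0.107 times as high in the controls and 1.23 ± 0.115 times in the libraries labelled knockdown (SD, n = 5). For Sh3glb1 the ratio was 1.28 ± 0.127 in the controls and 0.682 ± 0.058 in the libraries labelled knockdown, so that the order of this pair was reversed. Over the 6 relatives with a background share under 5%, the ratio in the libraries labelled knockdown was 0.534 (Sh3glb1) to 0.655 (Bin3) of that in the controls, and for each of the 6 the ranges of the groups did not overlap. These ratios share Bin2, which was picked for being lower, and they show only that none of the 6 was lower to the same extent.

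The summed level sets the relatives beside Bin2. With low-background scaling the 9 genes added to 208 ± 1.27 RPKM in the controls and 185 ± 4.00 RPKM in the libraries labelled knockdown, while the 8 without Bin2 added to 156 ± 3.68 and 155 ± 2.95 RPKM. The share of Bin2 in the sum went from 25.1% ± 1.76 to 16.4% ± 0.96, a value free of the scaling. Under TMM the 8 without Bin2 went the other way, from 143 ± 6.87 to 169 ± 6.80 RPKM, and the sum of all 9 from 191 ± 10.9 to 202 ± 7.18 RPKM. Whether the sum of the 9 was lower or higher thus turned with the scaling, and under low-background scaling the 8 relatives together were level to within the spread of the libraries.

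**Figure D4:**
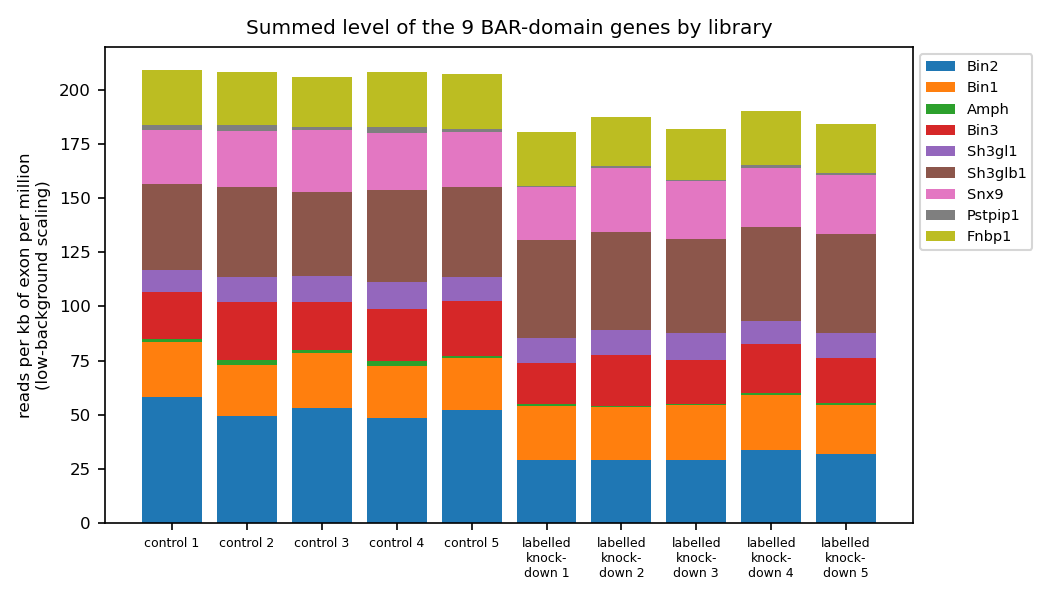
Stacked bars, from 0, give the level of the 9 BAR-domain genes in RPKM under low-background scaling, 1 bar for each of the 10 libraries. The part for Bin2 takes 25.1% of the bar on average in the controls and 16.4% in the libraries labelled knockdown, while the remainder stays at about the same height.

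A wider list of 61 other BAR-domain genes was read for the same question, and all 61 were tested. Under TMM 28 were called higher, 15 lower and 18 not, where 22.9% of all tested genes were called higher and 31.3% lower. Of the 17 with a background share of 20% or more, which reached 79.7% (Arhgap42), 14 were called lower. Among all genes with a share of 25 to 40%, a narrower band, 55.3% were called lower. The part called lower among all genes at 20% or more was not counted, so the 14 are not read against it. Of the 28 with a background share under 5%, TMM called 26 higher, with values of 0.12 to 0.40, and 0 lower. Among all genes under that share, TMM called 75.5% higher and 0.486% lower. Under low-background scaling the 28 ran from -0.12 (Ica1) to 0.15 (Appl1) with a median of -0.03, and 5 were called higher and 1 lower. Among all genes under a 5% share, 6.32% were called higher there and 5.46% lower, and over all tested genes 1.62% and 44.6%. The subfamily counts below stand beside the same shares. The lowest value of the 28 lay above the -0.78 of Bin2, which was picked for its fall. The scaling itself rests on genes under a 5% share. Relatives above that cut, such as Fchsd2 below, are not in this range.

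By subfamily, the 24 classical and N-BAR relatives gave 7 called higher and 9 lower under TMM, and 1 and 11 under low-background scaling. Appl1, an endosomal adaptor of signalling receptors, was higher under both, at 0.40 (SE 0.07) and 0.15 (SE 0.06). Acap2, an Arf6 GTPase-activating protein, was at 0.29 under TMM and 0.04 under low-background scaling, where it was not called. Acap1 and the endophilin Sh3gl2 were called lower under both, at -1.13 and -1.37 under TMM, with background shares of 24.8% and 68.1%. Within the wider list, the 1 gene under a 5% share that was called lower was Arhgap17, at -0.10 under low-background scaling and 0.15 under TMM.

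The 21 F-BAR relatives gave 10 higher and 6 lower under TMM, and 1 and 7 under low-background scaling. Fnbp1l (TOCA-1), the close relative of Fnbp1 that activates N-WASP with Cdc42, was higher under both, at 0.38 (SE 0.06) and 0.14 (SE 0.05). Fer, a tyrosine kinase, was at 0.32 under TMM and 0.07 under low-background scaling, and Fcho2, which acts early at clathrin-coated pits, was at 0.24 and 0.00. Its relative Fcho1 was called lower under both, at -0.93 under TMM, with a background share of 33.4%. Fchsd2, an activator of actin assembly at pits that was singled out after its value was seen, lay at -0.38 (SE 0.05) under low-background scaling and -0.14 under TMM, with a background share of 6.58%.

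The 5 I-BAR relatives gave 2 higher and 0 lower under TMM and 0 and 2 under low-background scaling. Mtss1 and Baiap2, which shape protrusions of the cell surface, were at 0.21 and 0.27 under TMM and at -0.04 and 0.02 under low-background scaling. Baiap2l2 and Mtss1l were not called under TMM, at -0.65 and -0.18, and were the 2 called lower under low-background scaling, with background shares of 40% and 16.5%. Of the 11 sorting nexins with a BAR domain, TMM called 9 higher and 0 lower. Snx6, Snx5 and Snx2, which pair within the membrane coat that retrieves cargo from endosomes, were also the 3 called higher under low-background scaling, at 0.15 (SE 0.05), 0.11 (SE 0.03) and 0.08 (SE 0.03). Snx7 was at 0.27 under TMM and 0.03 under low-background scaling.

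**Figure D5:**
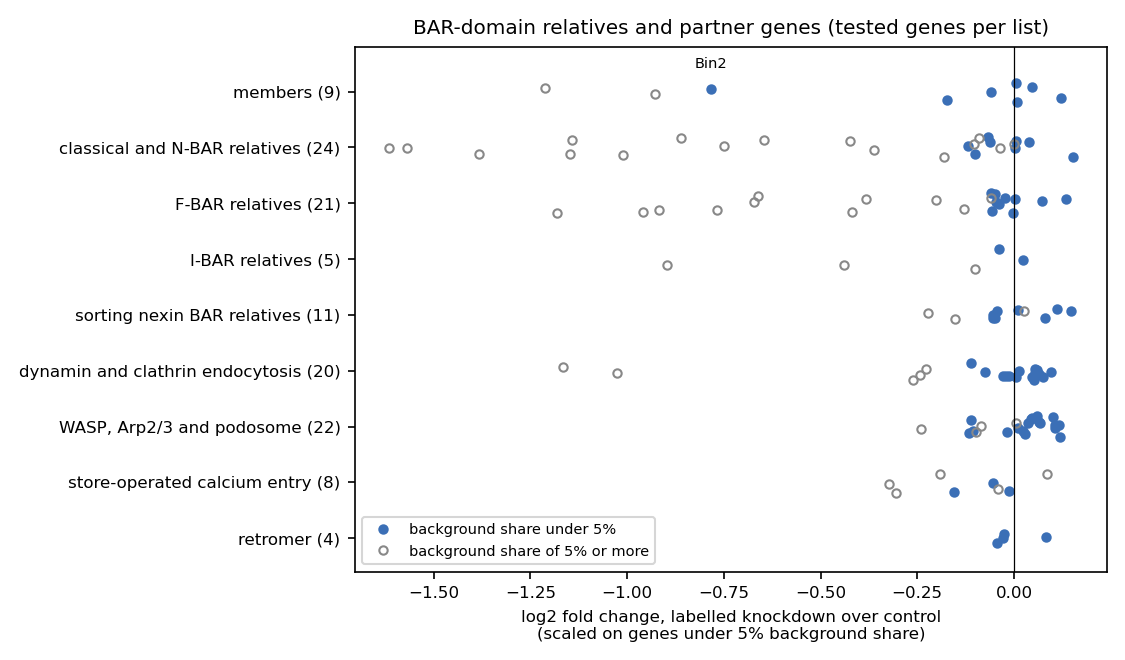
Each point is a tested gene, placed by its log2 fold change (libraries labelled knockdown over control) under low-background scaling, with filled points for a background share under 5% and open points for larger shares; the number of genes per list is in brackets. Filled points of the 61 genes of the wider BAR-domain list lie between -0.12 and 0.15. Among the members, Bin3 lies at -0.17 and Bin2, which was picked for its fall, at -0.78.

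The partners of these proteins were read in the same way, and their counts stand beside the same shares of all genes. Over all tested genes, TMM called 22.9% higher and 31.3% lower, and low-background scaling called 1.62% higher and 44.6% lower. Of genes with a background share under 5%, TMM called 75.5% higher, and low-background scaling called 6.32% higher and 5.46% lower. Most of the TMM calls higher below are of genes under a 5% share and lie near that 75.5%. The counts of whole lists also include genes above that cut. Of 20 genes of dynamin and clathrin endocytosis, TMM called 15 higher and 2 lower, and low-background scaling called 2 higher and 6 lower. The 15 genes with a background share under 5% were those called higher under TMM, and low-background scaling called 2 of them higher and 1 lower. Eps15, Cltc, Clta and Dnm2, encoding a pit scaffold, the clathrin chains and the widely used dynamin, were at 0.30 to 0.34 under TMM and 0.05 to 0.10 under low-background scaling, where Eps15 and Cltc were called. The 2 called lower under TMM were Dnm1 (-0.78) and Dnm3 (-0.91), with background shares of 33.0% and 68.6%. Retromer, which works with sorting nexins of the Snx5 and Snx6 kind, had all 4 genes, each with a background share under 5%, called higher under TMM, with Vps35 at 0.33 and Vps26a, Vps29 and Vps26b at 0.20 to 0.22, and 0 called under low-background scaling.

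Of 22 genes of the WASP, Arp2/3 and podosome list, structures in which BIN2 and PSTPIP1 are known to take part, TMM called 17 higher and 0 lower, and low-background scaling called 5 higher and 1 lower. Of the 18 with a background share under 5%, 16 were called higher under TMM. Actr2 and Arpc2, subunits of the Arp2/3 complex, the cortactin relative Hcls1 and the GTPase Cdc42 were at 0.35 to 0.36 under TMM and 0.10 to 0.12 under low-background scaling. The fifth gene called higher was Actr3 (0.12), and the 1 called lower was the podosome scaffold Sh3pxd2b (-0.12). Of the 8 genes of store-operated calcium entry, TMM called 3 higher and 0 lower, Stim2 at 0.33, Orai1 at 0.23 and Itpr3 at 0.19, and Orai2 (0.20) was not called. The 3 called lower under low-background scaling were Stim1 (-0.19), the calcium sensor of the endoplasmic reticulum, and the calcium release channels Itpr1 (-0.32) and Itpr2 (-0.31), with background shares of 7.08% to 10.7%. That scaling called 44.6% of all tested genes lower.

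The genes whose pattern was most like that of Bin2 were taken by Pearson's r of TMM log2 CPM over the 10 libraries, among 6685 protein-coding genes that averaged 20 CPM or more. They were Cadm1 (0.967), Bptf (0.957), Ralgapa2 (0.933), Anks1 (0.91) and Lrp4 (0.898). Their background shares were 0.898%, 2.65%, 14.7%, 5.26% and 14.5% in that order, and the part of background in their likeness to Bin2 was not tested. These genes share libraries and the group difference with Bin2, and with each group's mean removed the values were 0.566 to 0.801. Their log2 differences were -0.40 to -0.22 under TMM and -0.64 to -0.47 under low-background scaling, all smaller than that of Bin2.

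The cells were labelled microglia, and the 12 microglial markers were all read. Marker sums are in CPM of the library totals, without either scaling. The microglial markers summed to 4080 to 4350 CPM in the controls and 4300 to 4620 CPM in the libraries labelled knockdown. Of the 12, 11 were called higher under TMM and 0 were called under low-background scaling. Among all genes with a background share under 5%, TMM called 75.5% higher, and low-background scaling called 6.32% higher and 5.46% lower. Markers of astrocytes (170 to 202 CPM against 155 to 180 CPM), the oligodendrocyte lineage (117 to 136 against 95.1 to 113), endothelium (151 to 184 against 134 to 154), fibroblasts and mural cells (36.5 to 58.1 against 16.0 to 29.9) and border macrophages (628 to 699 against 663 to 726) summed to less than the microglial markers in both groups. Their median background shares were 14.4%, 47.9%, 30.5%, 82.6% and 40.6% in that order, against 0.494% for the microglial markers. Under TMM, astrocyte and border macrophage markers each had 2 called higher and 2 lower. Endothelium had 1 and 4, the oligodendrocyte lineage 0 and 3, and fibroblasts and mural cells 0 and 6. Over all tested genes TMM called 22.9% higher and 31.3% lower, and among those with a background share of 25 to 40% it called 0.138% and 55.3%. No marker was at 0 in all libraries, and the part of these cells in the members' values was not tested. In bulk RNA, fewer cells of a type and less RNA per cell cannot be told apart. Spi1, which encodes PU.1, was at 0.22 (SE 0.06) under TMM and -0.03 (SE 0.04) under low-background scaling.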

How the data were processed

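Total RNA from primary microglia was sequenced from libraries of a stranded low-input kit, per the labels' protocols. The values in the 10 deposited files are raw counts, 1 whole number for each gene, to which no scaling had been applied. bcl2fastq was used for demultiplexing and the build was GRCm38 (mm10), both from the submitters' processing notes. Not given in the sources used here are the aligner, the counting program with its strand setting, and the annotation. Each file listed 55563 entries, and the 92 ERCC spike-ins were left out. GENCODE M21 supplied symbols, exon lengths and coordinates for 55230 genes. The 241 unmatched genes held 0.0107% of reads.

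Genes passing filterByExpr were tested with edgeR 4.0.16 (R 4.3.3), TMM, glmQLFit with a robust fit and group as the only term, and Benjamini-Hochberg adjustment over all tested genes with a threshold of 0.05. The procedure was tested on simulated data. Low-background scaling took TMM factors from genes with a background share under 5%. DESeq2 1.42.0, other scalings and filters, lane, replicate block and omitted libraries were alternatives. The members, lists, low-background scaling and tests were chosen with earlier results of these data known. The text names all members, the 4 genes of each list with the lowest p, list genes called against a list's majority where 3 or fewer, the 5 genes most like Bin2, 3222401L13Rik and Spi1; Arhgap17, Actr3, Sh3pxd2b, Fchsd2, Ica1, Stim1, Itpr1 and Itpr2 were named after their values were seen. Libraries of 1 group differed by more than counting noise in every pair (chi-square over its degrees of freedom, 1.76 to 4.475). Figures used Python 3.11.15 and matplotlib 3.10.9.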

Additional observations from a re-analysis of the deposited data

How the results depend on the processing

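Relative to 4418 genes called higher and 6033 lower, upper-quartile scaling gave 1685 and 7195, library totals 759 and 7888, low-background scaling 312 and 8589, background subtraction (genes under a 20% share) 85 and 399, the stricter filter 2057 and 2239, no filter 5821 and 7282, DESeq2 4997 and 5055, lane 7 alone 4135 and 5770 and lane 8 alone 67 and 153. Omitting single libraries gave 4032 to 5015 higher and 4928 to 6967 lower. Relatives called higher, 5 in the chosen fit, were 2, 1, 1, 1 and 3 in the first 5 of these settings and 0 on lane 8, and those called lower, 2 in the chosen fit, were 3 under low-background scaling, 0 after subtraction (where 6 relatives were tested, without Amph and Pstpip1), 1 without a filter, 1 on lane 7 and 0 on lane 8. Omitting single libraries gave 5 higher and 1 to 2 lower.

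The direction of Bin3 (0.07) turned under upper-quartile scaling (-0.075), library totals (-0.134), low-background scaling (-0.174), subtraction (-0.184) and the stricter filter (-0.047). Fnbp1 turned with totals (-0.019), low-background scaling (-0.06) and subtraction (-0.069), and Bin1 with subtraction (-0.004). Bin2 ran from -0.808 to -0.411 over its 21 alternatives and from -0.574 to -0.475 over omitted libraries. The cause of these shifts was not tested.

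With the replicate block 4405 genes were called higher and 5949 lower, with 5 and 2 relatives, and no member's call changed. Same-numbered libraries of the groups had correlations of -0.144, -0.294, 0.031, 0.187 and 0.2, and 1 of 5 was closest to its own number, so the numbers were not taken to pair them.

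Under low-background scaling, omitting single libraries left 1 relative called higher and 2 to 3 lower, and lane 8 alone left 0 and 0. Bin2 ran from -0.821 to -0.739 over those omissions and was -0.895 on lane 7 and -0.62 on lane 8. Depth limits Amph and Pstpip1, with 285 and 291 reads over all 10 libraries.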
